A study of Homo sapiens with 8 samples.

Results

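Aspartate tRNA with the anticodon GTC, written tRNA-Asp-GTC, was followed through 8 iCLIP libraries of 2 human dihydrouridine synthases. Its members are the sense-strand crosslink sites on every reference sequence whose name begins with tRNA-Asp, and the value at a site is the number of crosslink events the authors counted there. There were 110 such sites among 16258 sites of the whole series, on 3 references among 254, of which 252 were tRNAs. Sites were taken into the family by reference name alone, without a cutoff on their values. The members and the lists below were, however, chosen with earlier results of these data known.

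Flp-In T-Rex 293 cells, a line of human embryonic kidney cells that carries a tetracycline-inducible transgene, expressed DUS2L or DUS1L with a 3xFLAG tag. All cells received 1 µg/mL tetracycline for 12 h and then fresh medium with tetracycline for another 12 h. That second medium either held 100 µM 5-ClUrd (5-chlorouridine) or did not. The groups were DUS2L with 5-ClUrd, DUS2L untreated, DUS1L with 5-ClUrd and DUS1L untreated, with 2 libraries each, and every group therefore overexpressed a tagged enzyme. The series describes the replicates as biological. Whether these came from separate cultures is not given in the sources used here, so the p-values measure the spread between the libraries. No library of cells without a tagged enzyme was analysed here.

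Dihydrouridine synthases reduce uridine to dihydrouridine, a flexible, non-planar base that gives the D loop of tRNA its name. DUS1L acts on neighbouring uridines of that loop and DUS2L on a uridine further along it. tRNA-Asp decodes the GAC and GAU codons of aspartate and carries queuosine at the first base of its anticodon, a modification shared with the tRNAs for asparagine, histidine and tyrosine. 5-ClUrd is a chlorinated uridine that can replace uridine in newly made RNA, and a halogen at that ring position can hold such an enzyme on its substrate. In iCLIP the tagged protein is pulled down and reverse transcription stops beside the crosslinked base, so a count is read as a crosslink event at a site. The word contact is used below in that sense. Whether any stop had another cause was not tested.

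The 3 references name 13 genes, all of which matched the RefSeq annotation of GRCh38.p14 as tRNA genes of 72 nt. tRNA-Asp-GTC-1-1 stands for TRD-GTC1-1 (chromosome 12, 98503503 to 98503574). tRNA-Asp-GTC-3-1 stands for TRD-GTC3-1 (chromosome 6, 27583457 to 27583528). The tRNA-Asp-GTC-2 reference merges 11 genes, 5 on chromosome 1, 3 on chromosome 12, 2 on chromosome 6 and 1 on chromosome 17, among them TRD-GTC2-1 (chromosome 1, 161440825 to 161440896) and TRD-GTC2-11 (chromosome 17, 8222238 to 8222309). These copies are near-identical, and how reads that match several of them were assigned is not given in the sources used here, so the split of counts between references is uncertain. Positions are counted from 1 at the 5′ end of each reference. They were not converted to canonical tRNA numbering, from which they may differ by a base, and the regions below are ranges of reference positions.

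Sense-strand totals ran from 130011 to 824657 counts in 7 libraries. The second untreated DUS1L library held 7369 counts, and 3 counts in it correspond to 0.0407% of the library. Antisense counts on tRNA-Asp-GTC did not exceed 1 in any library. Intervals below are exact 95% binomial intervals and cover counting error only.

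tRNA-Asp-GTC was a large part of the DUS2L libraries and a trace of the DUS1L libraries. It had 29983 and 27415 counts in the DUS2L libraries with 5-ClUrd, and 13836 and 16656 counts in the untreated DUS2L libraries. It had 3041 and 2542 counts in the DUS1L libraries with 5-ClUrd, and 92 and 3 counts in the untreated DUS1L libraries. As a share of all sense counts this was 8.08% and 7.55% with DUS2L and 5-ClUrd, against 10.6% and 9.68% in untreated DUS2L cells. With DUS1L and 5-ClUrd it was 0.369% and 0.469%, against 0.0637% and 0.0407% in untreated DUS1L cells. The 4 groups did not overlap in these shares. The interval of the share in the second untreated DUS1L library ran from 0.00840% to 0.119%, and that of the first from 0.0514% to 0.0782%. Counted per nucleotide of RNA, tRNA-Asp-GTC ranked first among the 48 tRNA families with an annotated length in all 4 DUS2L libraries, and between 31 and 32 in the DUS1L libraries.

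**Figure D1:**
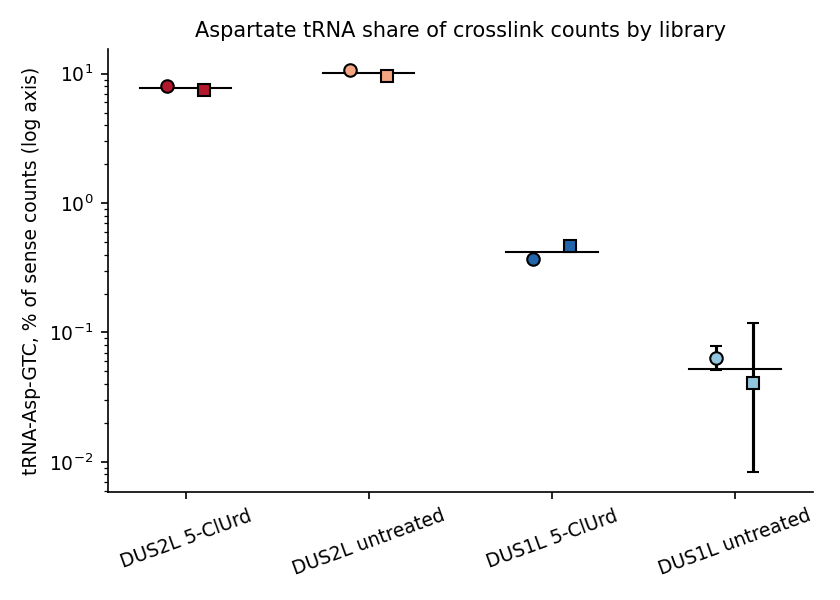
Share of sense-strand crosslink counts on tRNA-Asp-GTC in each library, on a log axis in percent; points are libraries (circle replicate 1, square replicate 2), horizontal bars are group means and vertical bars exact 95% binomial intervals. The 4 DUS2L libraries lie between 7.55% and 10.6%, and the 4 DUS1L libraries between 0.0407% and 0.469%.

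The first question the design puts is whether the analogue changed the contacts of each enzyme. With DUS1L, tRNA-Asp-GTC averaged 0.419% ± 0.0706 of counts after 5-ClUrd and 0.0522% ± 0.0163 without it (SD, n = 2 each). edgeR's quasi-likelihood test put the log2 fold change at 2.91 ± 0.78 (SE, adjusted p = 0.0352). Of all families tested, 24.5% passed in either direction, 22.6% as higher and 1.89% as lower, and the median family stood at 1.35, so tRNA-Asp-GTC lay 1.56 above the median. With libraries scaled by TMM factors the log2 fold change was 1.84 (adjusted p = 0.134), and without the first or the second treated library the call was lost at adjusted p = 0.506 and 0.500. With every site above 500 counts in any of the 8 libraries left out of all of them, it was -0.052 (adjusted p = 0.966). This removed 29 sites of tRNA-Asp-GTC, all of which passed 500 counts in a DUS2L library, and left 131 and 153 counts in the treated DUS1L libraries, against 26 and 0 in the untreated ones.

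With DUS2L the share was lower in both treated libraries, but the difference did not pass the test. tRNA-Asp-GTC averaged 7.82% ± 0.377 of counts after 5-ClUrd and 10.2% ± 0.681 without it (SD, n = 2 each). On the log2 scale edgeR gave -0.38 with a standard error of 0.19 (adjusted p = 0.101). Among the families tested 76.4% passed, 52.7% as higher and 23.6% as lower, and the median family was at 0.86. tRNA-Asp-GTC therefore lay -1.24 from the median, and 4 of the 5 rRNA families passed as lower, with a median of -2.01. TMM factors shifted the median family by -0.65 and gave tRNA-Asp-GTC -1.03 (adjusted p = 0.000388), and a fit on tRNA families alone gave -0.59 (adjusted p = 0.00408), so the call depends on the scaling.

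The treatment effects of the enzymes differed. The interaction term, the DUS2L effect minus the DUS1L effect, was -3.23 ± 0.34 on the log2 scale (SE, edgeR adjusted p = 0.00116), against a median of -0.31 over all families, of which 29.1% passed and 18.2% were lower. Without sites above 500 counts it was -0.42 (adjusted p = 0.701). Sites above that count numbered 25 and 23 in the treated DUS2L libraries, 7 and 12 in the untreated DUS2L libraries, 1 and 1 in the treated DUS1L libraries, and none in the untreated DUS1L libraries.

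Set against each other with the analogue present, DUS2L libraries held more tRNA-Asp-GTC than DUS1L libraries by 4.22 ± 0.25 on the log2 scale (adjusted p = 5.58e-06). Without the analogue the difference was 7.45 ± 0.30 (adjusted p = 9.74e-07). Families that passed made up 65.5% of those tested with the analogue, 38.2% higher, and 89.1% without it, 47.3% higher. The medians of all families were 0.49 and 2.45. Names of the deposited DUS2L files mention a first mapping to non-coding RNAs and names of the DUS1L files do not, so the enzyme and a difference in how the files were made cannot be told apart.

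Within the family, the merged tRNA-Asp-GTC-2 reference carried most counts. It had 22532 and 20016 counts in treated DUS2L libraries and 8920 and 10731 in untreated ones. In DUS1L libraries it had 2711 and 2160 counts after treatment, against 45 and 3 untreated. tRNA-Asp-GTC-1-1 had 7367 and 7264 counts in treated DUS2L libraries, against 4901 and 5916 in untreated ones. It had 329 and 380 counts in treated DUS1L libraries, against 44 and 0 in untreated ones. tRNA-Asp-GTC-3-1 was rare everywhere, with 84 and 135 counts in treated DUS2L libraries, 15 and 9 in untreated DUS2L libraries, and at most 3 in any DUS1L library.

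The references did not shift alike. With DUS2L, tRNA-Asp-GTC-1-1 made up 25.5% ± 1.36 of the family's counts after 5-ClUrd and 35.5% ± 0.0683 without it (SD, n = 2 each). Fitted as features of their own, tRNA-Asp-GTC-1-1 fell with DUS2L by 0.85 on the log2 scale (SE 0.20, adjusted p = 0.00691), while the tRNA-Asp-GTC-2 reference stood at -0.18 ± 0.20 (adjusted p = 0.448) and tRNA-Asp-GTC-3-1 at 1.86 ± 0.94 (adjusted p = 0.107). With DUS1L, the tRNA-Asp-GTC-2 reference rose by 3.42 ± 0.80 (adjusted p = 0.0315), and tRNA-Asp-GTC-1-1 stood at 1.27 ± 0.92 (adjusted p = 0.298). tRNA-Asp-GTC-3-1 had too few DUS1L counts to be tested. The interaction was -3.63 ± 0.40 for the tRNA-Asp-GTC-2 reference (adjusted p = 0.00182), -1.97 ± 0.78 for tRNA-Asp-GTC-1-1 (adjusted p = 0.0818) and 4.75 ± 1.52 for tRNA-Asp-GTC-3-1 (adjusted p = 0.0505). A test of one reference against another was not run.

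The references also differ in how far their sites reach. No site on the tRNA-Asp-GTC-2 or tRNA-Asp-GTC-3-1 reference lay past position 30 in any library, whereas tRNA-Asp-GTC-1-1 had sites from position 2 to position 55. Counts at the anticodon loop and beyond therefore lie on the tRNA-Asp-GTC-1-1 reference alone. Since the assignment of reads that match several copies is not given, these counts cannot be ascribed to the TRD-GTC1-1 gene. Among 165 tRNA references with at least 1000 counts, 26 ended at or before position 30, and the median last position was 54. Why sites end there was not tested.

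**Figure D2:**
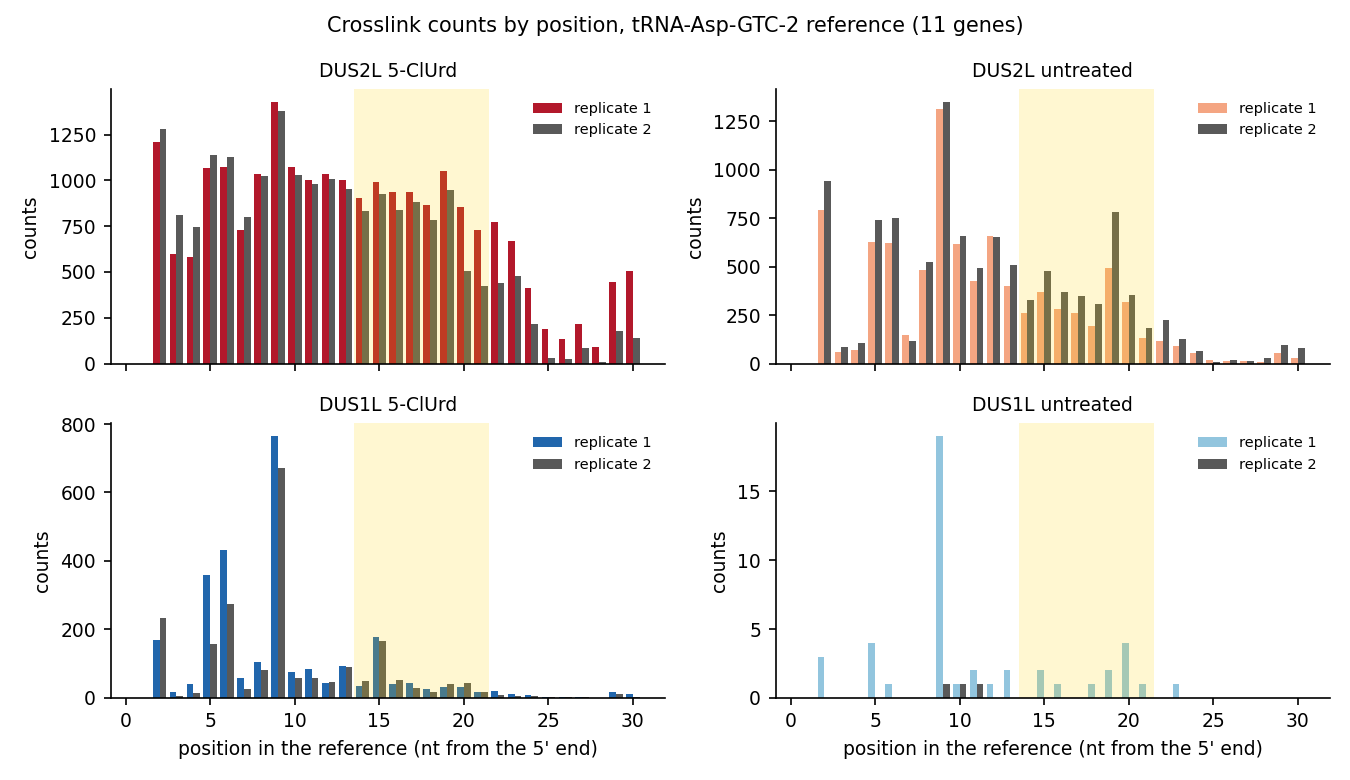
Crosslink counts at each position of the tRNA-Asp-GTC-2 reference (11 merged genes), one panel per group with its own count axis; coloured and grey bars are replicates 1 and 2, and yellow marks the D loop. Treated DUS1L libraries show a sharp maximum of 764 and 671 counts at position 9, where treated DUS2L libraries have a broad plateau that reaches 1428 and 1377.

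Position 9, just before the D stem, was the highest position of the family in both DUS2L groups and in treated DUS1L cells, and in untreated DUS1L cells it was close to position 33, with 19 and 1 counts against 21 and 0. It held 2516 and 2484 counts in treated DUS2L libraries, and 2329 and 2489 in untreated DUS2L libraries. With DUS1L it held 906 and 862 counts after treatment. As a share of the family this was 8.73% with DUS2L and 5-ClUrd, 15.9% in untreated DUS2L cells, 31.9% with DUS1L and 5-ClUrd and 27.0% in untreated DUS1L cells, the last a mean over libraries of 92 and 3 counts.

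On the tRNA-Asp-GTC-2 reference alone, position 9 had 1428 and 1377 counts in treated DUS2L libraries, against 1314 and 1348 in untreated ones. These 4 counts lie close together although the library totals differ, at 370878 and 363024 with treatment and 130011 and 172078 without. As shares of the library they were 0.385% and 0.379% with treatment, against 1.01% and 0.783% untreated. Over all references no site of any library exceeded 1436 counts, and position 9 of this reference was the highest site of its library in 3 of the 4 DUS2L libraries. The highest site of tRNA-Asp-GTC-1-1 was also level, at 1076 and 1073 counts in treated DUS2L libraries and 1013 and 1137 in untreated ones. Whether the counting has an upper limit per site was not tested.

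The 5′ end of the tRNA, positions 1 to 9, took 40.5% ± 5.47 of the family's counts with DUS2L and 5-ClUrd and 42.0% ± 1.80 in untreated DUS2L cells (SD, n = 2 each). With DUS1L and 5-ClUrd it took 69.0% ± 3.01, against 29.3% and 33.3% in the untreated DUS1L libraries, where these are 27 of 92 and 1 of 3 counts. The D loop, positions 14 to 21, took 29.3% and 27.3% with DUS2L and 5-ClUrd, against 24.0% and 27.2% in untreated DUS2L libraries. With DUS1L and 5-ClUrd it took 16.9% ± 2.72 (SD, n = 2), against 16.3% and 0 in the untreated DUS1L libraries. The D loop share was higher in both treated DUS2L libraries than in either treated DUS1L library, by 11.4 percentage points on average. An exact two-sided permutation test of 2 libraries against 2 cannot go below p = 0.333, which is the value it gave here, and no difference of region shares could pass. With each site counted once, the same difference was -3.62 percentage points.

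Inside the D loop the highest position differed between the enzymes. In treated DUS1L libraries position 15 stood out with 198 and 195 counts, against 39 and 53 at position 14 and 53 and 74 at position 16. DUS2L libraries were highest at position 19, with 1544 and 1414 counts after treatment and 865 and 1348 untreated. The positions on either side of it, 18 and 20, held 297 and 439 and 367 and 424 counts in untreated DUS2L libraries. In treated DUS1L libraries position 19 held 39 and 42 counts. Position 15 also stood above its neighbours in DUS2L libraries, with 1173 and 1083 counts after treatment and 503 and 631 untreated. There it was only slightly above position 16, at 0.316% and 0.298% of treated libraries against 0.302% and 0.286%. In untreated DUS2L libraries the shares were 0.387% and 0.367%, against 0.321% and 0.307% at position 16.

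That contrast was tested on shares, with the family's own total in each library as the scale, in the 4 treated libraries alone. This fit was chosen after the data were seen, because the second untreated DUS1L library, with 3 counts, could not enter the fit over all 8. Of 49 positions tested, 16 held a larger share with DUS2L and 2 a smaller one. Of all tRNA and rRNA positions tested, 33.3% passed, 11.9% as larger and 21.4% as smaller. Shares within a library add up to the whole. Positions 1 to 9 together took 40.5% with treated DUS2L and 69.0% with treated DUS1L, so larger DUS2L shares elsewhere partly mirror that difference. They are not separate gains. Position 19 held a larger share with DUS2L by 1.82 ± 0.41 on the log2 scale (SE, edgeR adjusted p = 0.000166), and position 18 by 2.14 ± 0.46 (adjusted p = 7.69e-05). Position 9 held a smaller share with DUS2L, by -1.87 ± 0.34 (adjusted p = 1.72e-06), and so did position 6, by -1.28 ± 0.37 (adjusted p = 0.00414). With sites above 500 counts in any library left out, position 9 turned to 6.69 and 2 positions passed. That setting removes position 9 of tRNA-Asp-GTC-1-1 and of the tRNA-Asp-GTC-2 reference, so the value rests on tRNA-Asp-GTC-3-1 alone, with 12 and 34 counts in treated DUS2L libraries and 0 in both treated DUS1L libraries.

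Further positions with a larger DUS2L share lay at 3 and 4 near the 5′ end, at 12, at 17 and 21 of the D loop, at 22 to 25, 27 and 30 beyond it, and at 36, 52 and 55 on tRNA-Asp-GTC-1-1. Positions 52 and 55 had no count in either treated DUS1L library and passed the minimum of 10 counts through DUS2L alone. Their direction was therefore fixed by that minimum, and their part in the number of larger shares is a description. Of the 10 positions from 22 to 31, 6 passed. Position 23 differed by 2.89 ± 0.59 and position 22 by 2.02 ± 0.53. The treated DUS2L replicates differed most in this stretch, with 202 and 31 counts at position 25, 238 and 89 at position 27 and 570 and 153 at position 30. Position 15, the D loop maximum of the treated DUS1L libraries, was not among the positions that passed.

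Split by reference, part of this pattern was seen on each. The references are parts of the family counts tested above, in the same libraries, so this is no independent repeat. On tRNA-Asp-GTC-1-1 the share at positions 12, 18 and 19 was larger with DUS2L by 2.78, 2.73 and 2.32 on the log2 scale, and that at position 9 was smaller by -1.67. On the tRNA-Asp-GTC-2 reference the difference was 1.63 at position 19 and -2.16 at position 9. All 6 passed at an adjusted p under 0.05. The tRNA-Asp-GTC-1-1 values rest on few DUS1L counts. Its treated DUS1L libraries held 22 and 18 counts over positions 10 to 13, and 54 and 62 over the whole D loop.

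**Figure D3:**
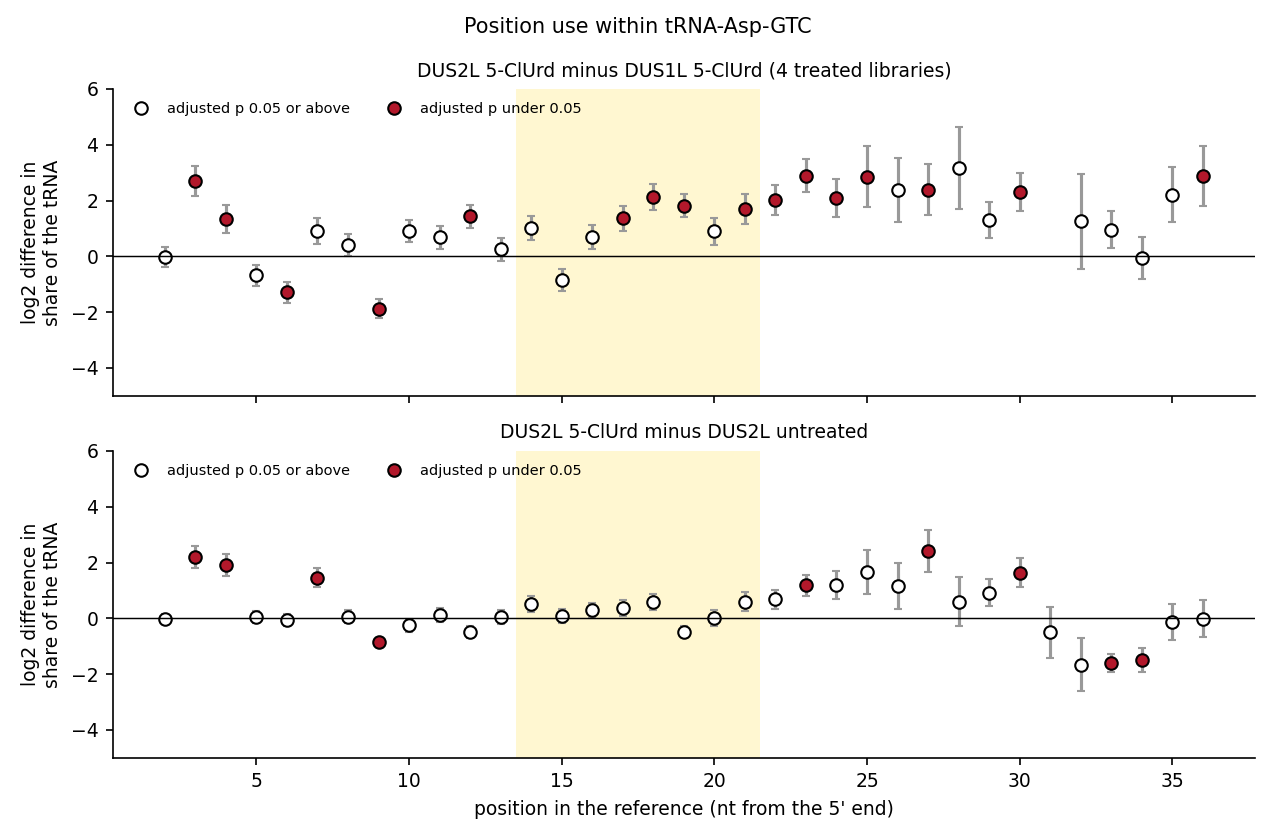
Log2 difference in each position's share of tRNA-Asp-GTC counts, for treated DUS2L minus treated DUS1L libraries (top) and for treated minus untreated DUS2L libraries (bottom); bars are standard errors, filled points passed an adjusted p of 0.05, yellow marks the D loop, and positions past 36 and differences above 4 are not drawn. Position 9 is at -1.87 and -0.86, and positions 17, 18, 19 and 21 of the D loop are filled in the top panel and open in the bottom one.

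With DUS2L and the references summed, positions 3, 4, 7, 23, 27 and 30 took a larger share of the tRNA after 5-ClUrd, and positions 9, 33 and 34 a smaller one. Of 53 positions tested for their share, 6 rose and 3 fell. Of all tRNA and rRNA positions tested, 8.69% passed, 5.77% as higher and 2.91% as lower. The median position of tRNA-Asp-GTC was at 0.04 and that of all positions at -0.08. Position 3 rose by 2.20 ± 0.40 (SE, edgeR adjusted p = 3.41e-06), position 4 by 1.92 ± 0.40 and position 7 by 1.46 ± 0.35. Position 9 fell by 0.86 (SE 0.16, adjusted p = 3.74e-06). Its counts before scaling were close in treated and untreated DUS2L libraries, and the part of a possible upper limit per site was not tested. Position 33, in the anticodon loop, fell by 1.59 (SE 0.33, adjusted p = 8.47e-05) and its neighbour 34 fell by 1.48 (SE 0.43, adjusted p = 0.0128). Without the first untreated DUS2L library positions 4, 7, 33 and 34 no longer passed (adjusted p = 0.0635, 0.0546, 0.0635 and 0.345), and without the second positions 7 and 34 did not (adjusted p = 0.129 and 0.110). Without sites above 500 counts 1 position passed, and position 9 turned to 2.36.

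The references differed in which positions passed. On the tRNA-Asp-GTC-2 reference alone, the share rose at positions 3, 4, 7, 23 and 27 and fell at position 9, by 1.05 (SE 0.20). On tRNA-Asp-GTC-1-1 alone it rose at positions 2 (1.11 ± 0.29, adjusted p = 0.00412), 5 (1.19 ± 0.37, adjusted p = 0.0215) and 55 and fell at position 33, by 1.11 (SE 0.31, adjusted p = 0.00938). There position 9 stood at -0.44 (adjusted p = 0.177), position 34 at -1.004 (adjusted p = 0.106) and position 23 at -0.44 (adjusted p = 0.760), and positions 3, 4, 7, 27 and 30 did not pass. Positions 33 and 34 have counts on tRNA-Asp-GTC-1-1 alone, so their share of the summed family also moves with that reference's part of the family, 25.5% with 5-ClUrd and 35.5% untreated.

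In counts, position 3 held 641 and 872 with 5-ClUrd, against 79 and 98 in untreated DUS2L libraries. Position 4 held 601 and 772 with 5-ClUrd, against 86 and 108 untreated. Position 33 held 361 and 239 with 5-ClUrd, against 432 and 525 untreated, although the treated libraries were deeper. Positions 3 and 4 sit in the acceptor stem and position 33 in the loop that reads the codon.

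Scaled to the library instead, 4 positions rose with DUS2L after 5-ClUrd (3, 4, 7 and 27) and 8 fell (9, 10, 12, 19, 33, 34, 42 and 49) of 53 tested. Over all sites 39.4% passed, 15.5% higher and 23.8% lower, with a median of -0.56, against -0.35 for tRNA-Asp-GTC. Position 9 fell by 1.25 (SE 0.18, adjusted p = 3.99e-10), position 33 fell by 1.96 (SE 0.39) and position 19 fell by 0.85 (SE 0.24). Counts at position 9 before scaling were close in treated and untreated DUS2L libraries, so its fall is one relative to depth. The part of a possible upper limit per site in that fall was not tested. Without either untreated DUS2L library 0 positions passed edgeR's test, with 9 and 12 at an unadjusted p under 0.05.

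With DUS1L, 11 of 27 positions rose after 5-ClUrd and 0 fell, with 16 at an unadjusted p under 0.05. Over all sites 28.3% passed, 26.8% as higher and 1.5% as lower. The positions were 2, 5 to 9 and 13 to 17, and 4 of them lie in the D loop. Position 5 held 373 and 160 counts with 5-ClUrd, against 4 and 0 untreated, and position 15 held 198 and 195, against 4 and 0. Their log2 fold changes were 3.87 ± 1.13 and 3.54 ± 1.08 (SE, adjusted p = 0.0286 and 0.0324). Position 6, with 475 and 293 counts against 1 and 0, had a ratio of 85.2 with a counting interval from 15.2 to 3370, and position 2, with 179 and 248 counts against 3 and 0, one of 15.8 from 5.37 to 76.9.

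Positions 7, 8, 14 and 17 had no untreated DUS1L count. They could enter the test only through the treated libraries, so their direction was fixed by the filter on low counts. Against a floor of 3 counts over the group, they were at least 3.29-fold, 7.32-fold, 3.40-fold and 2.92-fold higher with 5-ClUrd. Under TMM factors 5 positions passed, 3 higher and 2 lower. Without the first untreated library none passed edgeR's test, with 3 at an unadjusted p under 0.05.

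The treatment effect was lower with DUS2L than with DUS1L at 5 of 53 positions, all at the 5′ end (2, 5, 6, 8 and 9), and higher at none, with 14 positions at an unadjusted p under 0.05 in edgeR's test. Over all sites 2.51% passed, 0.814% as higher and 1.7% as lower. Untreated DUS1L libraries together held 3 counts at position 2, 1 at position 6 and none at position 8. At position 9 of the tRNA-Asp-GTC-2 reference they held 19 and 1. Where along the tRNA the effects differed is therefore a description. In the direct comparison of enzymes, 48 of 53 positions were higher with DUS2L among treated libraries, against 41.9% of all sites passing and 22.9% as higher. The same number, 48 of 53, passed as higher among untreated libraries, against 34.8% passing and 21.8% higher. Of these, 7 among treated and 25 among untreated libraries had no DUS1L count in the libraries compared, so the filter on low counts had fixed their direction. The counts of 48 are therefore a description. Position 8, with 658 and 718 counts in untreated DUS2L libraries and 0 in both untreated DUS1L libraries, was at least 230-fold higher with DUS2L.

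**Figure D4:**
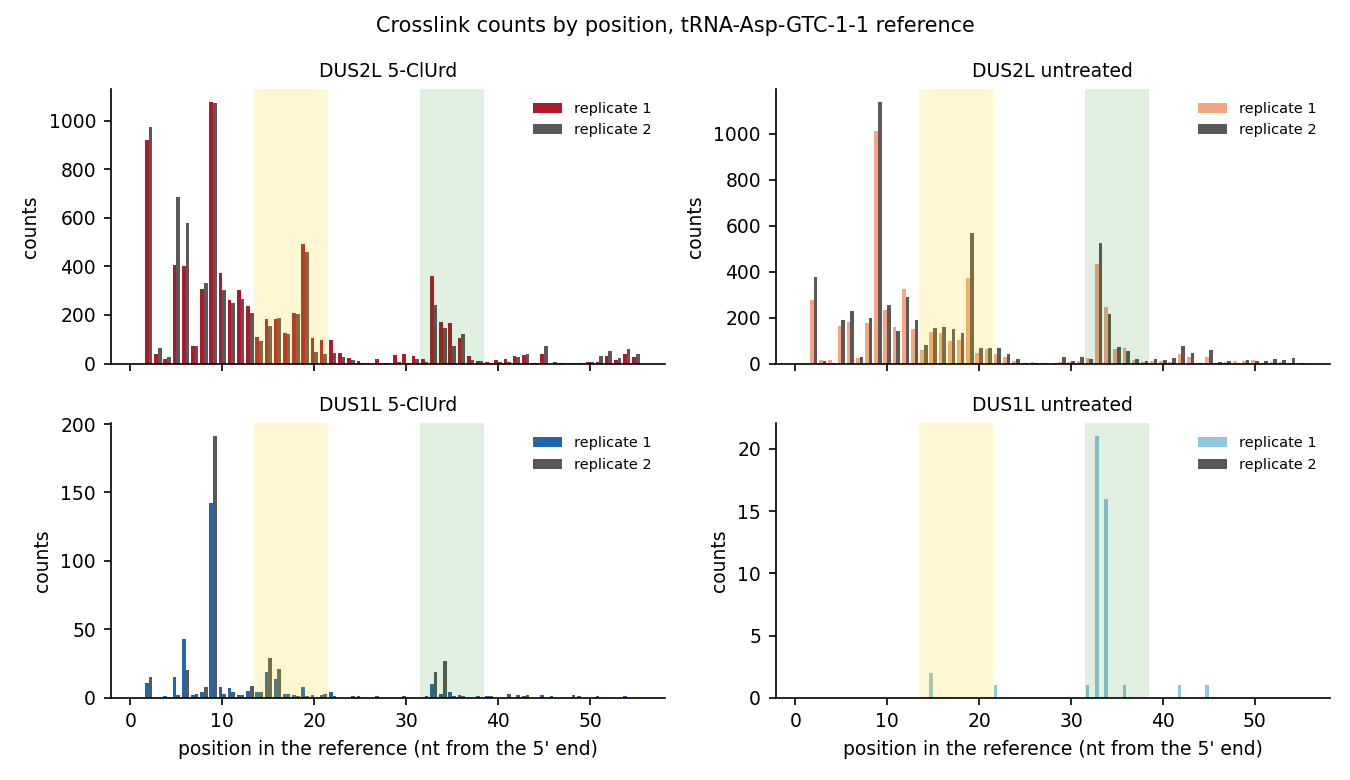
Crosslink counts at each position of tRNA-Asp-GTC-1-1, one panel per group with its own count axis; coloured and grey bars are replicates 1 and 2, yellow marks the D loop and green the anticodon loop. Position 33 of the anticodon loop stands above positions 32 and 35 in each library with counts there, with 432 and 525 in untreated DUS2L libraries. It is the highest position of the first untreated DUS1L library with 21 counts. Position 34 is near level with position 35 in the first treated DUS2L library and below it in the first treated DUS1L library.

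Contacts with the anticodon loop, positions 32 to 38, were a minor part of the family except in one sparse library. They took 2.88% and 2.24% of the family's counts with DUS2L and 5-ClUrd, against 6.17% and 5.51% in untreated DUS2L libraries. With DUS1L and 5-ClUrd they took 0.658% and 1.93%, against 42.4% and 0 in untreated DUS1L libraries, where these are 39 of 92 and 0 of 3 counts. The DUS2L groups did not overlap, and the DUS1L groups did. Without the first untreated DUS1L library the DUS1L difference turned from -19.9 to 1.29 percentage points. On tRNA-Asp-GTC-1-1 alone the loop took 10.1% with DUS2L and 5-ClUrd and 16.5% in untreated DUS2L cells.

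The authors' deposited peak lists add one further view. Each peak's score equals the summed counts of its sites in all 1680 peaks, and 12 peaks lie on tRNA-Asp-GTC. Peaks that start at position 32 or 33 of tRNA-Asp-GTC-1-1 were called in 7 of the 8 libraries, with scores of 699 and 579 with DUS2L and 5-ClUrd, 680 and 740 in untreated DUS2L cells, 17 and 46 with DUS1L and 5-ClUrd, and 39 in the first untreated DUS1L library. In the second untreated DUS1L library no peak lay on the family. The tRNA-Asp-GTC-2 reference, which held most counts, had a peak in 1 library only, at positions 5 to 9 with a score of 1719 in the first treated DUS1L library. How peaks were called is not given in the sources used here.

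Among the 4 families that carry queuosine, tRNA-Asp-GTC and tRNA-His-GTG had like levels, and tRNA-Asn-GTT and tRNA-Tyr-GTA had others. tRNA-His-GTG held 5.53% and 6.75% of counts with DUS2L and 5-ClUrd, against 8.74% and 9.44% in untreated DUS2L libraries. With DUS1L it held 0.402% and 0.498% after 5-ClUrd, against 0.0554% and 0.204% untreated. tRNA-Tyr-GTA held 0.517% and 0.442% with DUS2L and 5-ClUrd, against 0.130% and 0.104% untreated, and with DUS1L 2.81% and 2.53% after 5-ClUrd, against 1.77% and 0.991% untreated.

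**Figure D5:**
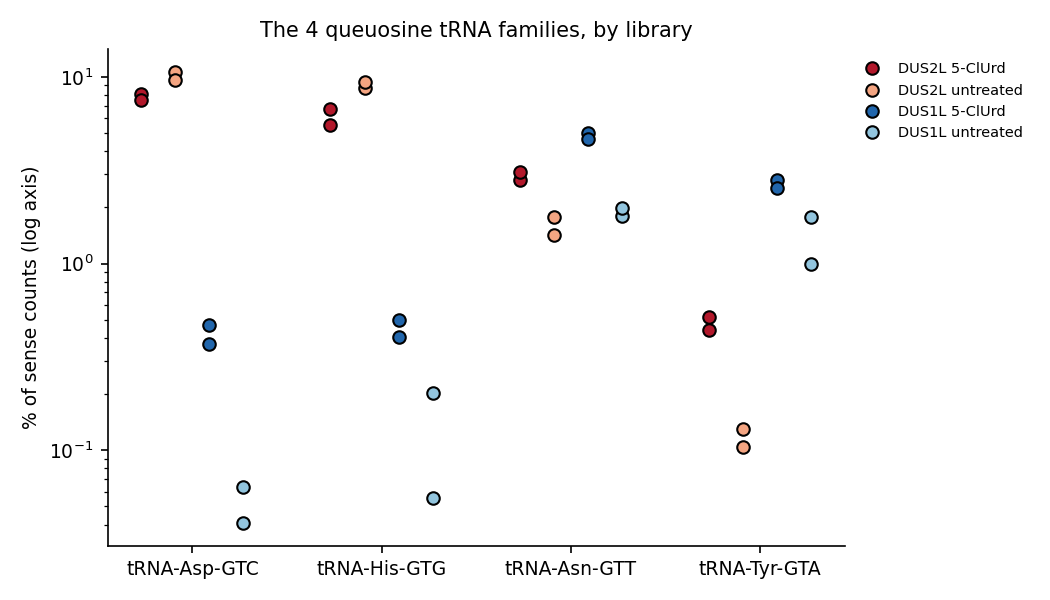
Share of sense-strand counts on the 4 tRNA families that carry queuosine, one point per library on a log axis in percent, coloured by group. tRNA-Asp-GTC and tRNA-His-GTG lie higher in all DUS2L libraries than in any DUS1L library, and tRNA-Tyr-GTA lies lower.

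With DUS2L, 2 of these 4 families rose after 5-ClUrd, tRNA-Asn-GTT by 0.88 ± 0.22 and tRNA-Tyr-GTA by 2.04 ± 0.23 on the log2 scale (SE). tRNA-His-GTG fell by 0.57 (SE 0.21, adjusted p = 0.0386). Over all families 52.7% passed as higher in this comparison and 23.6% as lower. With DUS1L, 2 of the 4 rose, tRNA-Asp-GTC and tRNA-Asn-GTT (1.35 ± 0.35, adjusted p = 0.0347), and none fell, beside 22.6% of all families higher. Between enzymes in treated libraries, 2 were higher with DUS2L, tRNA-Asp-GTC and tRNA-His-GTG (3.77 ± 0.52), and 1 was lower, tRNA-Tyr-GTA (-2.48 ± 0.39), beside 38.2% of all families higher and 27.3% lower. The tRNA-Asn-GTT calls were lost under TMM factors, at 0.32 with DUS1L (adjusted p = 0.683) and 0.23 with DUS2L (adjusted p = 0.414), and without either treated DUS1L library (adjusted p = 0.506 and 0.460) or either untreated DUS2L library (adjusted p = 0.222 and 0.102). The tRNA-His-GTG call with DUS2L was lost without either untreated DUS2L library or the first treated one (adjusted p = 0.184, 0.296 and 0.270). The medians of the 4 families were 0.25, 1.65 and 1.53 in these 3 comparisons, beside 0.86, 1.35 and 0.49 over all families. A difference between families was not tested.

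By the root mean square difference of log2 shares over the 8 libraries, each centred on its own mean, the families most like tRNA-Asp-GTC of 54 were tRNA-Leu-TAG (0.489), tRNA-Glu-CTC (0.535) and tRNA-His-GTG (0.737), where the median family stood at 2.82. These points share libraries and depth, so the measure is a description. tRNA-Leu-TAG held 2.21% and 2.34% of counts with DUS2L and 5-ClUrd, against 3.46% and 3.83% untreated, and with DUS1L 0.0843% and 0.119%, against 13 and 1 counts untreated. tRNA-Glu-CTC held 1.96% and 0.929% with DUS2L and 5-ClUrd, against 1.59% and 1.61% untreated, and with DUS1L 0.0457% and 0.0551%, against 6 and 0 counts untreated.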

How the data were processed

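Sense-strand crosslink counts per reference and position were used as the authors deposited them, with positions read from the 1-based end of each site. The deposited peak lists give a score per peak, which equals the summed counts of its sites. Reads were aligned with STAR 2.7.0f and hg38 is the build, per the submitters' processing notes; removal of duplicate reads is not given in the sources used here. References were summed into families, and libraries were scaled to total sense-strand counts. edgeR 4.0.16 (R 4.3.3, limma 3.58.1) fitted quasi-likelihood models to family counts, to counts per family and position, and to the latter with the family total as offset, for features with at least 10 counts, with Benjamini-Hochberg adjustment over all features and a threshold of 0.05. Fits within an enzyme used its 4 libraries, the share fit between enzymes used the 4 treated libraries, and other fits used all 8. Each SE of an edgeR log2 value is the size of that value divided by the square root of its F statistic. The code was tested on simulated data. Likeness used a pseudocount of 1. DESeq2 1.42.0, TMM factors, other count minimums, tRNA families alone, sites counted once, sites above 500 counts in any library left out of all, a replicate block and single libraries left out were alternatives. Named positions were the 8 with the highest mean share, the 3 highest in each group and the 6 of smallest p in each comparison; positions 13, 16, 17, 20, 21, 24, 25, 27, 30, 36, 42, 49, 52 and 55 were named after their values were seen. Members and lists were chosen with earlier results of these data known.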

Additional observations from a re-analysis of the deposited data

Results flagged for a closer look

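The effect of 5-ClUrd differed between the enzymes, by the interaction term of the fit over 8 libraries, for the family as a whole and for some of its parts. DUS2L minus DUS1L, the difference of log2 effects was -3.23 for tRNA-Asp-GTC and -3.63 for the tRNA-Asp-GTC-2 reference, which merges 11 genes. By position it was -4.51 at position 2, -4.21 at position 5, -6.78 at position 6 and -4.59 at position 9. At position 8 the fitted difference was -8.89, but no untreated DUS1L library had a count there, so that value depends on the fit and is no bound. The untreated DUS1L libraries, on which all 7 differences rest, held 92 and 3 counts of the family. The part of these small counts in the difference was not tested, and the family's value was -0.42 with sites above 500 counts in any library left out of all.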

How the results depend on the processing

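The differences between enzymes kept direction and call under all alternatives run, between 3.802 and 6.02 on the log2 scale with 5-ClUrd and between 6.44 and 7.96 untreated. The DUS1L effect on the family, 2.91, was 1.84 with TMM factors, 1.59 with DESeq2's size factors (adjusted p = 0.253) and 1.59 in DESeq2's Wald test (adjusted p = 0.125), 2.90 with a minimum of 1 count (adjusted p = 0.0596), 1.27 for tRNA-Asp-GTC-1-1 and -0.052 without sites above 500 counts. Leaving out a library gave 2.71 to 3.36. The DUS2L effect, -0.38, was -1.03 with TMM factors, -1.13 with DESeq2's size factors and -1.13 in its Wald test, -0.59 on tRNA families alone and -0.85 for tRNA-Asp-GTC-1-1, and -0.44 to -0.31 with a library left out. The interaction was -0.42 without sites above 500 counts, -1.97 for tRNA-Asp-GTC-1-1, and -3.74 to -3.06 with a library left out. Scaling by TMM or DESeq2's factors turned the calls over all families in the DUS1L comparison from 12 higher and 1 lower to 2 and 8 or 1 and 9, and in the DUS2L comparison from 29 and 13 to 19 and 21 or 18 and 21, as it shifted their median by -1.03 and -1.25 and by -0.65 and -0.75.

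Counts of called positions with a library left out ran from 0 to 13 for DUS1L, 0 to 14 for DUS2L, 0 to 14 for the interaction, 44 to 49 and 22 to 49 between enzymes with and without 5-ClUrd, 2 to 13 for DUS2L shares and 8 to 18 for shares between enzymes. The interaction count was 0 without either untreated DUS2L library (12 and 14 at an unadjusted p under 0.05, edgeR), 1 without the first and 14 without the second untreated DUS1L library. The untreated count of 22 was without the first untreated DUS1L library, the DUS2L share counts of 2 and 4 without an untreated DUS2L library, and the enzyme share counts of 10 and 8 without a treated DUS1L library. TMM factors left 5 DUS1L positions and a minimum of 1 count left 7 DUS2L positions. Without sites above 500 counts 1 DUS2L share and 2 enzyme shares passed, and position 9 turned to 2.36 in the DUS2L share and 6.69 in the enzyme share, and position 22 to -0.27.

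Without sites above 500 counts the D loop difference was -4.37 percentage points for DUS2L treatment and -16.9 between enzymes, and the anticodon loop difference between enzymes -4.09. On tRNA-Asp-GTC-1-1 alone the DUS2L D loop difference was -2.78. With each site counted once, the enzyme differences were -3.62 for the D loop and -1.31 for the anticodon loop, and the DUS1L anticodon loop difference 0.144. Leaving out a library gave 0.579 to 16.9, 1.07 to 4.27 and 9.48 to 13.3 for the D loop differences of DUS1L, of DUS2L and between enzymes, and -41.1 to 1.29, -3.61 to -2.95 and 0.631 to 1.90 for the anticodon loop. In the other families, tRNA-Tyr-GTA's DUS1L effect turned to -0.11, -0.37 and -0.37 with TMM factors, DESeq2's size factors and its Wald test, and tRNA-His-GTG's to -1.99 and its interaction to 1.17 without sites above 500 counts. The untreated tRNA-Asn-GTT difference between enzymes, -0.24, turned to 0.43, 0.23, 0.23 and 0.0015 with TMM factors, DESeq2's size factors, its Wald test and tRNA families alone. The causes were not tested.

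Libraries share replicate numbers, and their deviations correlated at 0.210 for DUS2L and 0.311 for DUS1L, but 2 pairs do not establish a pairing. With a replicate block the family effects were 2.92 for DUS1L, -0.38 for DUS2L and -3.21 for the interaction, with 8, 9 and 5 positions called. Depth limits the untreated DUS1L values most.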

Other observations

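Replicate libraries differed along the tRNA by more than counting error in 3 of the 4 groups. The chi-square statistic over positions of tRNA-Asp-GTC, divided by its degrees of freedom, was 24.3 between the treated DUS2L libraries, 5.03 between the untreated DUS2L libraries, 4.72 between the treated DUS1L libraries and 1.17 between the untreated DUS1L libraries. No pair of libraries was therefore counted as one. In the treated DUS2L pair the second library held more counts at positions 3 and 4, and fewer from position 20 to position 30.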
